A study of Mus musculus and Acomys cahirinus with 16 samples.

Results

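The tumour suppressor gene Trp53, 7 of the genes that the p53 protein is known to switch on (Mdm2, Cdkn1a, Ccng1, Bax, Bbc3, Sesn2 and Gdf15) and the CDK inhibitor genes Cdkn2a and Cdkn2b were followed in the skin of mouse and spiny mouse. These 10 genes were listed by symbol. All 10 were found among the 56980 genes of the mouse table and the 19818 genes of the spiny mouse table, and all 10 passed the filter on low counts in both. The samples came from the skin of the house mouse, Mus musculus, or the spiny mouse, Acomys cahirinus, each either untreated or treated with DMBA/TPA, with 4 samples in each of the 4 groups. DMBA (dimethylbenzanthracene) is a carcinogen that forms DNA adducts, and TPA, a phorbol ester, drives keratinocytes to divide. The design text of the series speaks of irradiated fibroblasts, while its title and every sample label speak of skin, and the labels were followed. Strain, age, dose, duration and the part of the skin taken (lesion or not) are not given in the labels. The labels number the samples of a group as replicates but do not say that they are separate animals, so the p-values measure the spread between these samples, which may be technical.

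The p53 protein is held low by Mdm2, a ubiquitin ligase that marks it for destruction and whose own gene p53 activates. After DNA damage p53 is stabilised, mostly at the protein level, and raises genes for arrest of the cell cycle (Cdkn1a), apoptosis (Bax, Bbc3) and stress handling (Sesn2, Gdf15). The INK4 locus works beside it. Its genes Cdkn2a and Cdkn2b encode inhibitors of the kinases CDK4 and CDK6, and a second product of Cdkn2a, p19Arf, blocks Mdm2. In mouse skin tumour models p53 and these inhibitors are known restraints on the malignant progression of papillomas.

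To show where p53 could act on these genes, their surroundings were searched in the mouse genome (GRCm39) for the p53 response element consensus, 2 half-sites of 10 bases each with no bases between them. The window ran from 5000 bases before to 3000 bases after the annotated gene start. That start is the outermost 5′ exon end over all annotated transcripts, so the distances below need not hold for the transcript mostly used. The consensus reads the same on both strands, and a match had to keep the 4-base core of each half-site, shown in capitals, with at most 2 departures elsewhere. The 4 genes with a match each had 1 departure, and the sequences are given 5′ to 3′ on the strand of the gene.
Cdkn1a, chr17:29309902-29309921, plus strand, 39 bases before the start: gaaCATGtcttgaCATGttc
Ccng1, chr11:40645763-40645782, minus strand, 366 bases after the start: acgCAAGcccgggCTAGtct
Cdkn2b, chr4:89226637-89226656, minus strand, 2630 bases after the start: agaCATGtccggtCTTGctc
Gdf15, chr8:71084616-71084635, minus strand, 481 bases after the start: tgaCTTGcctgaaCTTGcct
Of 15205 tested protein-coding mouse genes, 814 (5.35%) held a match under the same rule and 170 (1.12%) held one with at most 1 departure. A match describes letters in the genome and does not show binding. The other 6 genes had no match in this window, which says only that these letters do not stand there.

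Each mouse sample held between 19608787 and 30198281 counted fragments and each spiny mouse sample between 21143918 and 30561256. A count of 3 fragments corresponded to between 0.102 and 0.158 CPM (a gene's share of its library, adjusted by TMM factors so that samples of a species can be compared). The keratinocyte markers Krt5, Krt14, Krt1, Krt10, Dsg3 and Col17a1 were present in every group, with summed levels of 7565 to 14060 CPM in untreated and 20140 to 28880 CPM in treated mouse skin, and of 13200 to 16750 and 23670 to 30180 CPM in spiny mouse skin. Untreated mouse replicate 2 stood apart from its group, with 1554 CPM of summed anagen hair follicle markers against a group median of 14.3 CPM. It had the lowest level in its group of 6 of the 10 genes (Cdkn1a, Ccng1, Cdkn2b, Bax, Bbc3 and Sesn2). Its summed keratinocyte markers were also the lowest of the group, 7565 CPM against a median of 11840 CPM. In the untreated spiny mouse group, replicate 2 had the highest level of 8 of the 10 genes, all but Ccng1 and Cdkn2a. That sample also had the highest summed anagen hair follicle markers of its group (10460 CPM, median 6142 CPM). Its keratinocyte markers were the lowest (13200 CPM, median 15250 CPM). Since these are whole-tissue samples, fewer cells of a type and less RNA per cell cannot be told apart.

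In mouse skin 7 of the 10 genes changed with DMBA/TPA (edgeR quasi-likelihood test, Benjamini-Hochberg adjusted p under 0.05 over 19740 genes). Trp53, Cdkn1a, Cdkn2b and Sesn2 rose, and Ccng1, Bbc3 and Gdf15 fell. Of all genes tested in mouse 61.2% were called, 25.9% higher and 35.3% lower, so 7 of 10 is near the background and no more can be read from the count. In spiny mouse skin 5 genes changed, with Trp53, Mdm2 and Sesn2 higher and Ccng1 and Bbc3 lower, where 55.1% of the 14833 tested genes were called, 28.2% higher and 26.9% lower. The median log2 fold change of the 10 genes was 0.36 in mouse and 0.19 in spiny mouse, beside -0.15 and -0.01 over all genes tested. A difference in treatment effect between mouse and spiny mouse was tested by the interaction of species and treatment over 13656 shared genes, given as spiny mouse minus mouse. It was called for 6 of the 10, higher in spiny mouse for Ccng1 and Gdf15 and lower for Trp53, Cdkn1a, Cdkn2b and Sesn2, where 46.1% of all genes were called, 21.4% higher and 24.7% lower. The split of 2 higher and 4 lower became 3 and 3 on upper-quartile scaling, 3 and 2 on plain library size and 1 and 4 without the low-count filter, fits in which the median difference of all genes moved by 0.16, 0.22 and -0.13.

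**Figure D1:**
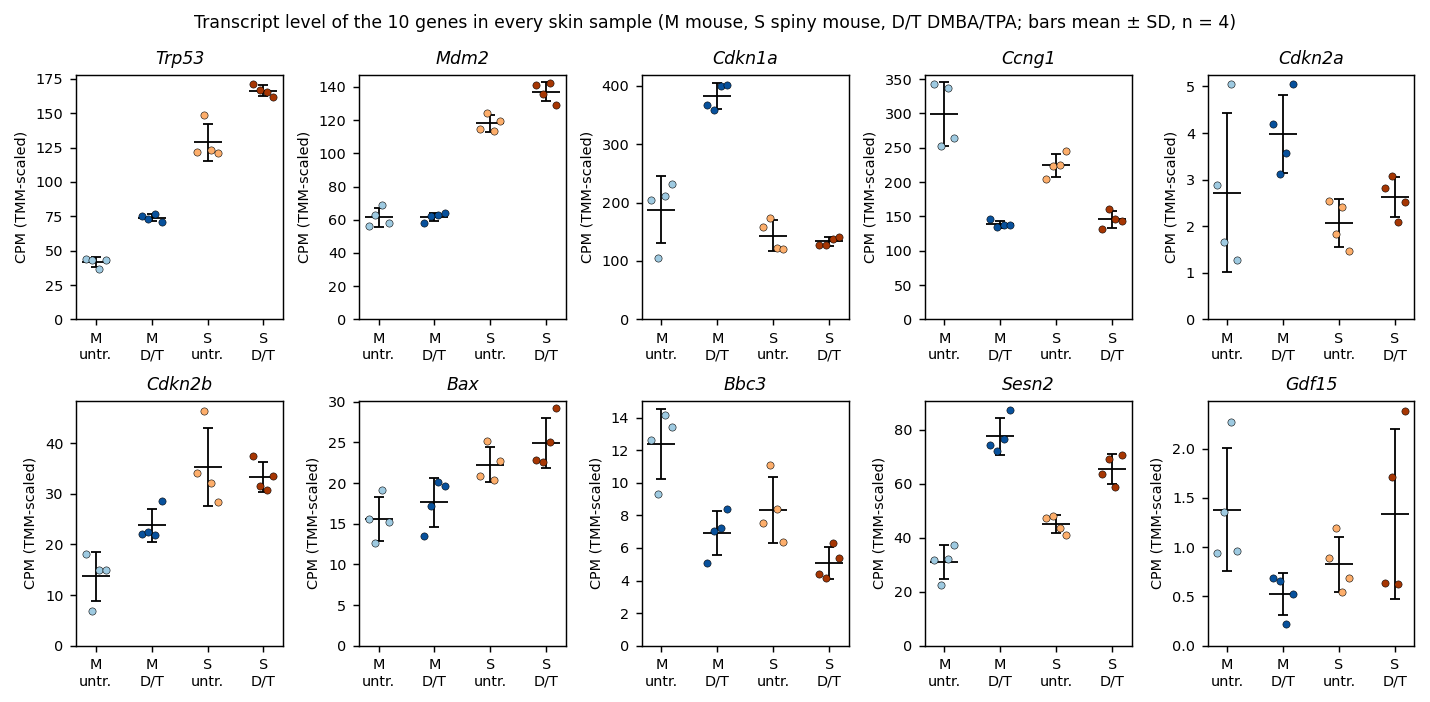
Level of each of the 10 genes (vertical axis, TMM-scaled CPM from 0) in untreated and DMBA/TPA-treated (D/T) skin of mouse (M, blue) and spiny mouse (S, orange), 1 point per sample with the mean and SD of 4 samples. Treated and untreated points do not overlap for 7 of the 10 genes in mouse and 5 of the 10 in spiny mouse, where 58.6% and 50.9% of all tested genes do not overlap. Levels were scaled within each species and are not compared between them.

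Trp53 encodes p53 itself. In the mouse genome it lies on chromosome 11 (ENSMUSG00000059552, GRCm39, 69471185 to 69482699, plus strand) and in the spiny mouse assembly AcoCah2 on scaffold_14 (98736420 to 98751908). Replicates 1 to 4 of untreated mouse skin had 44.2, 43.4, 36.7 and 43.1 CPM, and those of treated mouse skin 75.3, 73.1, 76.85 and 70.6 CPM. Every treated sample lay above every untreated one. The log2 fold change was 0.82 (SE 0.0899, edgeR adjusted p 8.97e-05). In spiny mouse the untreated samples had 122, 149, 123.5 and 121 CPM and the treated samples 171, 167, 165 and 162 CPM. Untreated replicate 2 was far above its group but still below all treated samples, and Trp53 rose by 0.37 on the log2 scale (SE 0.0762, edgeR adjusted p 0.00291). The rise was smaller in spiny mouse than in mouse by a log2 difference of -0.45 (SE 0.116, edgeR adjusted p 0.00502). This difference was lost when upper-quartile factors were used (-0.28, edgeR adjusted p 0.0651) and with library size alone (-0.23, edgeR adjusted p 0.126). Mouse also has an annotated pseudogene copy, Trp53-ps, and fragments fitting both places were not counted, so the mouse level of Trp53 is uncertain to that extent.

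Mdm2, the gene of the ligase that removes p53, did not pass the test in mouse. It lies on mouse chromosome 10 (ENSMUSG00000020184, 117524780 to 117546663, minus strand) and on spiny mouse scaffold_16 (16877580 to 16898385). Untreated mouse samples had 56.3, 62.6, 69.0 and 58.2 CPM and treated ones 58.3, 62.1, 62.7 and 63.9 CPM, with full overlap. The log2 fold change was 0.0055 (95% interval -0.20 to 0.21, edgeR adjusted p 0.962), and its sign turned with other scaling factors (-0.20 on upper-quartile scaling, -0.24 on plain library size). In spiny mouse Mdm2 went from 115, 124, 113 and 120 CPM to 141, 136, 142 and 129 CPM. All 4 treated samples lay above all untreated ones, and the log2 fold change of 0.22 (SE 0.0573) was called (edgeR adjusted p 0.0104). The species difference of 0.21 (95% interval -0.0083 to 0.43) was not called (edgeR adjusted p 0.107), though it was on upper-quartile scaling (0.38, edgeR adjusted p 0.0132) and on plain library size (0.44, edgeR adjusted p 0.00634).

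Because Mdm2 is both a target and the inhibitor of p53, the ratio of their counts within each sample was compared as well. This ratio and the ratio of Cdkn1a to Ccng1 below were chosen after the values had been seen, so both are descriptions with no test. Mdm2 over Trp53 in mouse was 1.27, 1.44, 1.88 and 1.35 in untreated and 0.775, 0.850, 0.815 and 0.905 in treated samples. The mean went from 1.49 ± 0.273 to 0.836 ± 0.0551 (mean ± SD, n = 4), without overlap. In spiny mouse the ratio was 0.922 ± 0.0659 in untreated and 0.824 ± 0.0266 in treated skin (n = 4), and the groups overlapped. A ratio within a sample does not depend on the scaling between samples.

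The cell cycle genes Cdkn1a and Ccng1, both textbook p53 targets, went opposite ways in mouse. Cdkn1a encodes p21, which inhibits cyclin-dependent kinases, and lies on chromosome 17 (ENSMUSG00000023067, 29309950 to 29319701, plus strand) and on spiny mouse scaffold_7 (4994091 to 5004665). Untreated mouse samples had 204, 105, 211 and 232 CPM and treated samples 366, 359, 400.2 and 402 CPM. Replicate 2 was the low untreated sample, and no treated sample came near the untreated range. Cdkn1a rose by 1.02 on the log2 scale (SE 0.227, edgeR adjusted p 0.00402), or by 0.91 without untreated replicate 2 (edgeR adjusted p 4.66e-06). In spiny mouse the levels were 159, 173, 121.5 and 120.5 CPM in untreated and 127, 127, 138 and 142 CPM in treated skin. The treated samples fell within the untreated range, with a log2 fold change of -0.10 (95% interval -0.38 to 0.17, edgeR adjusted p 0.487). The species difference was -1.13 (SE 0.267, edgeR adjusted p 0.00294). In the mouse annotation 273 exon bases of Cdkn1a (7.68%) are shared with Dino, a non-coding gene on the opposite strand, and the counting command names no strand option, so fragments there cannot be assigned to either with certainty.

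Ccng1 encodes cyclin G1, which recruits a phosphatase to Mdm2. It lies on mouse chromosome 11 (ENSMUSG00000020326, 40639379 to 40646138, minus strand) and, like Trp53, on spiny mouse scaffold_14 (72117180 to 72124207). Mouse levels were 342, 253, 336.5 and 264 CPM in untreated and 146, 134, 137 and 137 CPM in treated samples. The treated samples were closely grouped and all below the untreated ones. Ccng1 fell by 1.11 on the log2 scale in mouse (SE 0.135, edgeR adjusted p 0.000157). In spiny mouse it went from 204, 223, 225 and 245.5 CPM to 132, 161, 146 and 144 CPM, again without overlap. Its log2 fold change there was -0.62 (SE 0.0805, edgeR adjusted p 0.000236). The fall was smaller in spiny mouse by 0.49 (SE 0.150, edgeR adjusted p 0.0151), a call lost without the low-count filter (0.35, edgeR adjusted p 0.0755) and without treated mouse replicate 2 (0.37, edgeR adjusted p 0.0589).

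The ratio of Cdkn1a to Ccng1 counts in mouse was 0.597, 0.414, 0.628 and 0.881 in untreated samples and 2.51, 2.69, 2.91 and 2.94 in treated samples. Every treated sample lay far above the untreated range. A separation had to follow, since treated Cdkn1a lay above and treated Ccng1 below every untreated mouse sample. The mean went from 0.630 ± 0.192 to 2.76 ± 0.204 (mean ± SD, n = 4). In spiny mouse the ratio went from 0.647 ± 0.153 to 0.921 ± 0.0883 (n = 4). Its treated and untreated samples did not overlap, the lowest treated value being 0.791 and the highest untreated value 0.779.

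The INK4 genes Cdkn2a and Cdkn2b are neighbours in both genomes. In mouse they lie on chromosome 4 (Cdkn2a, ENSMUSG00000044303, 89192708 to 89212890; Cdkn2b, ENSMUSG00000073802, 89224536 to 89229276, both minus strand), and in the spiny mouse on scaffold_2 (152547179 to 152570314 and 152582720 to 152587411, minus strand). Cdkn2a makes p16Ink4a and p19Arf from separate first exons, at 89200223 to 89200429 (207 bases) and 89212571 to 89212890 (320 bases), joined to a shared exon at 89194882 to 89195222 (341 bases). The table gives 1 count for the whole gene, so the products cannot be told apart. Cdkn2a was scarce in every group. Mouse levels were 2.89, 1.67, 5.05 and 1.27 CPM in untreated samples, from 28 to 138 fragments, and 4.20, 3.12, 3.56 and 5.05 CPM in treated samples. The untreated samples spread over the whole treated range, and the log2 fold change of 0.54 (95% interval -0.36 to 1.44) did not pass (edgeR adjusted p 0.263). Untreated replicate 3 held the high value, and without it the fold change was 1.09 and was called (edgeR adjusted p 0.0201). Spiny mouse levels were 2.55, 1.82, 2.42 and 1.46 CPM in untreated and 2.82, 3.07, 2.09 and 2.51 CPM in treated skin, a log2 fold change of 0.34 (95% interval -0.15 to 0.82, edgeR adjusted p 0.211). The species difference of -0.20 had a wide interval, -1.21 to 0.81 (edgeR adjusted p 0.755).

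Cdkn2b encodes p15Ink4b, a CDK4 and CDK6 inhibitor best known as a target of TGF-beta. Untreated mouse samples had 18.1, 6.80, 14.98 and 14.9 CPM and treated ones 22.05, 22.5, 21.9 and 28.6 CPM. All treated samples lay above the untreated ones, of which replicate 2 was the lowest, and treated replicate 4 stood above the other 3 treated samples. The rise of 0.79 on the log2 scale (SE 0.259) was called (edgeR adjusted p 0.0241). It was 0.66 without untreated replicate 2 (edgeR adjusted p 0.000608), and was not called without treated replicate 4 (0.71, edgeR adjusted p 0.064) or with library size alone (0.57, edgeR adjusted p 0.0623). In spiny mouse Cdkn2b had 34.2, 46.4, 32.1 and 28.4 CPM in untreated and 37.4, 31.5, 30.8 and 33.5 CPM in treated skin. The groups overlapped, and the log2 fold change was -0.08 (95% interval -0.41 to 0.24, edgeR adjusted p 0.646), or 0.076 without untreated replicate 2. The species difference of -0.88 (SE 0.310, edgeR adjusted p 0.0302) was among the least stable. It was lost with library size alone (-0.67, edgeR adjusted p 0.0673) and in 5 fits that each left out 1 sample, namely treated mouse replicate 4, untreated spiny mouse replicate 2 and treated spiny mouse replicates 2, 3 and 4, with edgeR adjusted p from 0.0502 to 0.0709. With limma-voom it was -0.48 (adjusted p 0.0409).

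**Figure D2:**
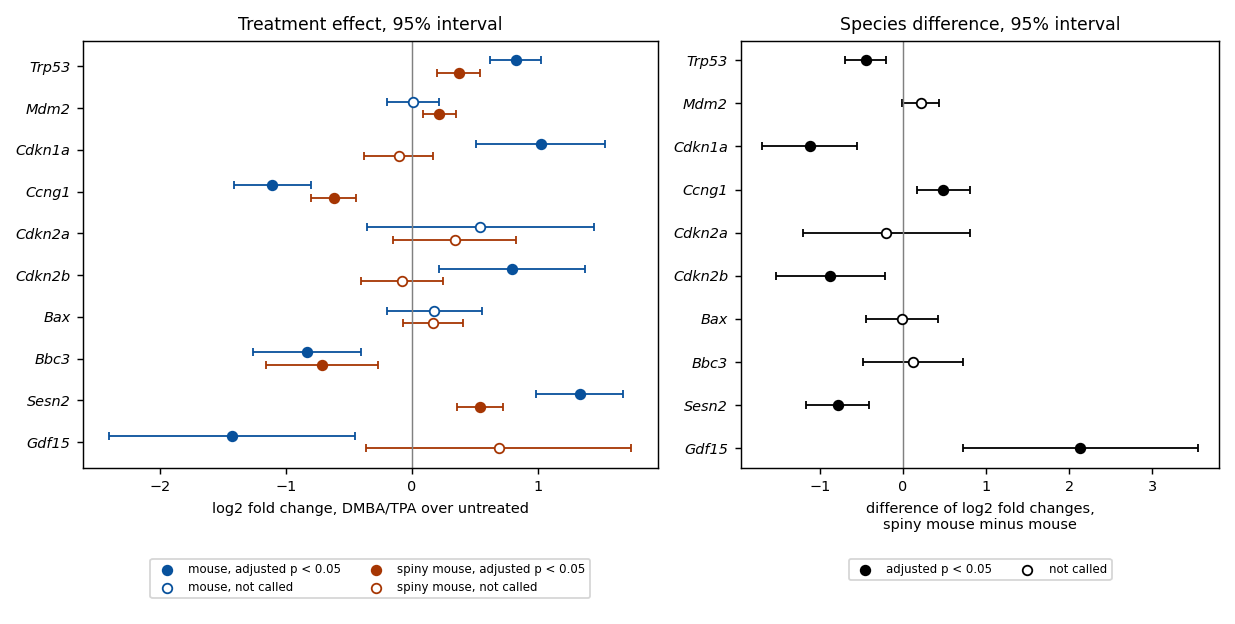
Left, log2 fold change of each gene with DMBA/TPA over untreated skin in mouse (blue) and spiny mouse (orange); right, the species difference, spiny mouse minus mouse. Bars are 95% intervals and filled points passed an adjusted p of 0.05. Trp53, Ccng1, Bbc3 and Sesn2 are filled in both species, while Bax and Cdkn2a are open in all 3 comparisons.

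The apoptosis genes Bax and Bbc3 are members of the BCL2 family. Bax encodes a protein that opens the outer mitochondrial membrane, and lies on mouse chromosome 7 (ENSMUSG00000003873, 45111121 to 45116322, minus strand) and spiny mouse scaffold_12 (63436238 to 63442447). Mouse levels were 15.55, 12.6, 19.1 and 15.2 CPM in untreated and 13.5, 17.2, 20.2 and 19.6 CPM in treated skin. Spiny mouse levels were 20.9, 25.15, 20.35 and 22.7 CPM in untreated and 22.8, 22.6, 25.1 and 29.3 CPM in treated skin. The groups overlapped in both species. Log2 fold changes were 0.18 in mouse (95% interval -0.20 to 0.55, edgeR adjusted p 0.379) and 0.16 in spiny mouse (95% interval -0.075 to 0.40, edgeR adjusted p 0.215), and the mouse value turned to -0.022 on upper-quartile scaling and -0.056 on plain library size. The species difference was -0.013 (95% interval -0.44 to 0.41, edgeR adjusted p 0.965). Of the mouse Bax exon bases 192 (12.2%) are shared with the gene model Gm45808.

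Bbc3 encodes PUMA, which binds and blocks the anti-apoptotic BCL2 proteins. It lies on mouse chromosome 7 (ENSMUSG00000002083, 16042318 to 16052130, plus strand) and on spiny mouse scaffold_19 (9086509 to 9095624). In mouse it went from 12.6, 9.30, 14.1 and 13.4 CPM to 5.09, 7.03, 7.20 and 8.39 CPM. In spiny mouse it went from 7.52, 11.1, 8.37 and 6.35 CPM to 4.41, 4.18, 6.33 and 5.39 CPM. All treated samples were below all untreated samples in each species, by a margin in spiny mouse of only 6.35 against 6.33 CPM. The log2 fold change was -0.83 in mouse (SE 0.189, edgeR adjusted p 0.00444) and -0.71 in spiny mouse (SE 0.198, edgeR adjusted p 0.013). The difference between the species was 0.12 (95% interval -0.48 to 0.72, edgeR adjusted p 0.753), an interval that leaves room for sizeable differences either way.

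Sesn2 and Gdf15 belong to the stress response, and both are also known targets of the transcription factor ATF4. Sesn2 encodes sestrin 2, an inhibitor of mTORC1 signalling, on mouse chromosome 4 (ENSMUSG00000028893, 132219343 to 132237812, minus strand) and spiny mouse scaffold_15 (29677073 to 29694169). Mouse levels were 31.7, 22.3, 32.2 and 37.5 CPM in untreated and 74.2, 72.2, 76.6 and 87.5 CPM in treated samples. The lowest treated sample was well above the highest untreated one. Sesn2 rose by 1.33 on the log2 scale (SE 0.153, edgeR adjusted p 0.000115), the largest rise of the 10 genes in mouse. In spiny mouse it went from 47.5, 48.2, 43.5 and 41.2 CPM to 63.5, 69.1, 58.7 and 70.8 CPM, a rise of 0.54 (SE 0.0821, edgeR adjusted p 0.000575) without overlap. The rise was smaller in spiny mouse by a log2 difference of -0.79 (SE 0.177, edgeR adjusted p 0.00203).

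Gdf15 encodes a secreted cytokine of the TGF-beta superfamily that is released by stressed cells. It lies on mouse chromosome 8 (ENSMUSG00000038508, 71082043 to 71085106, minus strand) and spiny mouse scaffold_13 (60963301 to 60966085). It was the least abundant of the 10 genes, with 6 to 62 fragments per mouse sample and 14 to 52 per spiny mouse sample. Mouse levels were 0.936, 1.36, 2.27 and 0.957 CPM in untreated and 0.683, 0.659, 0.218 and 0.520 CPM in treated samples. The groups did not overlap, and the log2 fold change was -1.43 (SE 0.433, edgeR adjusted p 0.0175). It was not called without untreated replicate 3, the highest sample (-1.02, edgeR adjusted p 0.0722). In spiny mouse the untreated samples had 0.885, 1.19, 0.545 and 0.686 CPM and the treated samples 0.637, 1.71, 0.622 and 2.38 CPM. Treated replicates 2 and 4 were high and replicates 1 and 3 lay within the untreated range, so the log2 fold change of 0.69 (95% interval -0.36 to 1.74) was not called (edgeR adjusted p 0.235). The species difference of 2.13 (SE 0.666, edgeR adjusted p 0.016) was the largest of the 10.

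Levels were also ordered within each group, as CPM per kilobase of annotated exon. In untreated mouse skin Ccng1 was highest (85.1 ± 13.4 CPM per kb, SD, n = 4), then Cdkn1a (52.9 ± 16), without overlap of the samples. Mdm2 followed at 12.1 ± 1.11, just above Trp53 at 10.3 ± 0.861. Trp53, Bax, Cdkn2b, Sesn2 and Bbc3, from 10.3 to 5.83 CPM per kb, each overlapped the next in order. Cdkn2a (2.32 ± 1.45) and Gdf15 (0.745 ± 0.337) came last and overlapped each other. In treated mouse skin Cdkn1a led at 107.5 ± 6.29 CPM per kb, ahead of Ccng1 at 39.5 ± 1.51 and Sesn2 at 22.3 ± 1.97, and each of these was clear of the next.

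In untreated spiny mouse skin Cdkn1a (69.7 ± 12.9 CPM per kb) and Ccng1 (64.2 ± 4.88) overlapped at the top, and Trp53 came next at 45.2 ± 4.77 (SD, n = 4). After treatment the order was Cdkn1a (64.8 ± 3.69), Trp53 (58.5 ± 1.36) and Ccng1 (41.7 ± 3.40), with no overlap between neighbours. Cdkn2a, Bbc3 and Gdf15 held the last 3 places in all 4 groups. Exon lengths come from 2 different annotations, and these levels were not tested between the species.

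**Figure D3:**
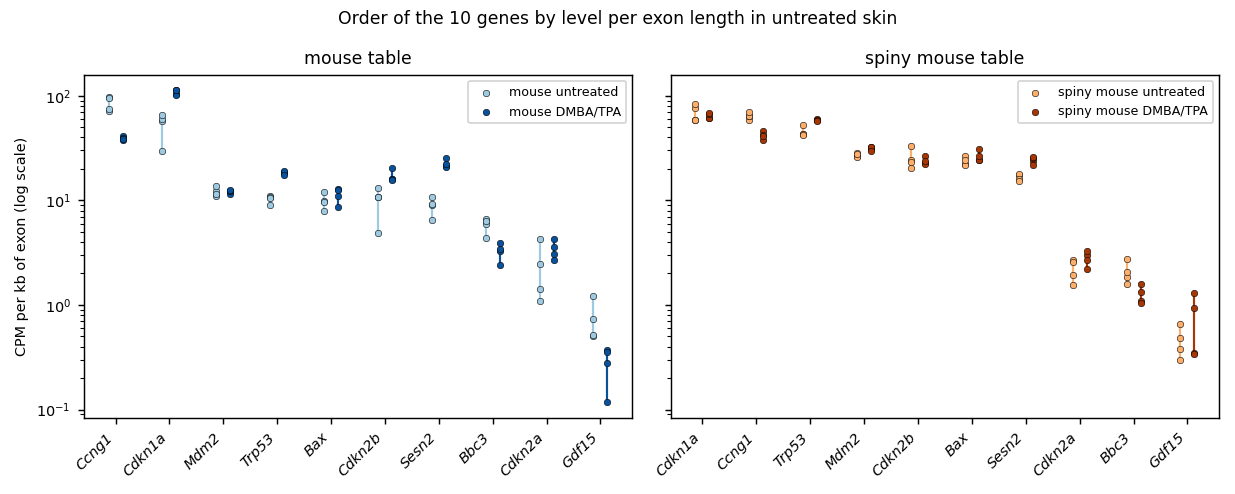
Level of each gene per kilobase of annotated exon (vertical axis, CPM per kb, log scale) in mouse (left) and spiny mouse (right), ordered by the untreated mean. Each point is a sample and lines join the lowest and highest of 4. In mouse Cdkn1a and Ccng1 change places after treatment, from 52.9 and 85.1 to 107.5 and 39.5 CPM per kb.

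The wider pathway was read from lists of related genes. The count of every list stands beside the shares over all genes tested, 25.9% higher and 35.3% lower in mouse. These shares were 28.2% and 26.9% in spiny mouse, and 21.4% and 24.7% for the species difference. No more can be read from a count near them. Other p53 targets were split in direction. Of 28 tested, 7 rose and 8 fell in mouse (median log2 fold change 0.088), and 9 rose and 8 fell in spiny mouse (median 0.12). The polo-like kinase genes Plk3 and Plk2 rose most in mouse, Plk3 from 33.0 ± 5.78 to 156 ± 9.65 CPM and Plk2 from 43.1 ± 4.31 to 148 ± 11.7 CPM (SD, n = 4; log2 fold changes 2.24 and 1.78, edgeR adjusted p 5.97e-06 and 6.55e-06). In spiny mouse Plk3 rose less (0.45, edgeR adjusted p 0.0145) and Plk2 fell (-0.64, edgeR adjusted p 0.0304), a call that 7 of 17 alternatives lost. Their species differences were -1.79 and -2.42 (edgeR adjusted p 4.09e-06 and 3.92e-06). Pmaip1, the gene of the apoptosis inducer NOXA, rose in both species, from 7.49 ± 2.39 to 24.6 ± 1.46 CPM in mouse and from 11.9 ± 3.02 to 40.9 ± 5.73 CPM in spiny mouse (log2 fold changes 1.71 and 1.78, edgeR adjusted p 0.000225 and 7.15e-05).

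The death receptor gene Fas fell in mouse from 8.69 ± 0.901 to 3.85 ± 0.421 CPM and rose in spiny mouse from 6.89 ± 1.32 to 10.5 ± 0.375 CPM (SD, n = 4). Its species difference was 1.78 (edgeR adjusted p 4.7e-06). The DNA repair gene Ddb2 fell in mouse by 1.32 on the log2 scale (edgeR adjusted p 0.000149), and in spiny mouse its log2 fold change was 0.31 (95% interval 0.013 to 0.61, edgeR adjusted p 0.0718). Eda2r, a receptor of the TNF family, fell in both species (-1.55 and -0.69, edgeR adjusted p 0.00197 and 0.0119). The kinase receptor gene Epha2 and the TRAIL receptor gene Tnfrsf10b rose in both species, by 1.59 and 1.06 in mouse (edgeR adjusted p 1.62e-05 and 0.00148) and by 1.21 and 0.69 in spiny mouse (edgeR adjusted p 4.62e-05 and 0.000561). Rrm2b, a subunit of ribonucleotide reductase, fell in both (-0.82 and -0.67, edgeR adjusted p 0.00025 and 0.00102). None of these 3 was called for the species difference (edgeR adjusted p 0.066, 0.172 and 0.471). Over the 28 targets the species difference was called higher for 5 and lower for 5, with a median of -0.017.

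Among 15 regulators of p53, 3 rose and 2 fell in mouse and 4 rose and 3 fell in spiny mouse (medians 0.12 and 0.035). The mouse count was 8 without untreated replicate 2 and with limma-voom, 3 without untreated replicate 3 or without treated replicate 1, 2 or 4, and 2 without treated replicate 3. Chek1 and Chek2, the checkpoint kinases that signal DNA damage, rose in both species, by 0.73 and 0.72 in mouse (edgeR adjusted p 0.00227 and 0.00104) and 1.38 and 0.72 in spiny mouse (edgeR adjusted p 4.01e-05 and 0.0014). Mdm4, a relative of Mdm2 that binds p53, had a log2 fold change of -0.74 in mouse (edgeR adjusted p 0.0222), not called without untreated replicate 3 or without treated replicate 2, 3 or 4. The p53 kinase gene Hipk2 rose in mouse (0.41, edgeR adjusted p 0.0373) and fell in spiny mouse (-0.35, edgeR adjusted p 0.00288). The mouse call of Hipk2 was lost in 7 of 17 alternatives. These were upper-quartile scaling, plain library size and leaving out untreated replicate 1 or 3 or treated replicate 1, 2 or 3. The species difference of Hipk2 was -0.76 (edgeR adjusted p 0.00185).

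Of the other 4 CDK inhibitor genes only Cdkn1c, encoding p57, was called, and it fell in both species, from 16 ± 3.37 to 9.56 ± 0.588 CPM in mouse and from 13.1 ± 2.89 to 6.86 ± 1.002 CPM in spiny mouse (SD, n = 4; log2 fold changes -0.74 and -0.93, edgeR adjusted p 0.00397 and 0.00162). Cdkn1b, Cdkn2c and Cdkn2d had log2 fold changes of -0.18, -0.26 and -0.35 in mouse and -0.065, -0.055 and 0.26 in spiny mouse, with edgeR adjusted p from 0.14 to 0.522. The mouse count of 1 became 3 on upper-quartile scaling, on plain library size and when untreated replicate 2 was left out, and 4 with limma-voom, all of them lower. The spiny mouse count became 2 without untreated replicate 2. No species difference was called by edgeR in this list, against 1 on upper-quartile scaling, 2 on plain library size or without untreated mouse replicate 2, and 3 with limma-voom. At an unadjusted p under 0.05 it held 1 gene, Cdkn2d (0.60, 95% interval 0.026 to 1.18).

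The kinases and cyclins that these inhibitors act on mostly rose. Of 16 CDKs, cyclins, Rb family and E2F genes 12 rose and 1 fell in mouse (median 0.61), and 11 rose and 3 fell in spiny mouse (median 0.64). Over all genes tested 25.9% were called higher in mouse and 28.2% in spiny mouse. Cyclin E1 (Ccne1) rose from 2.59 ± 0.570 to 12.0 ± 0.590 CPM in mouse and from 4.57 ± 1.54 to 12.1 ± 1.03 CPM in spiny mouse, log2 fold changes of 2.21 and 1.40 (edgeR adjusted p 1.83e-05 and 0.000665). Cdk1 and cyclin A2 (Ccna2) rose by 1.64 and 1.56 in mouse and by 1.86 and 1.87 in spiny mouse, and cyclin B1 (Ccnb1) by 1.56 and 2.0 (edgeR adjusted p at most 2.06e-05 for each). The Rb relative Rbl2 fell in mouse (-0.56, edgeR adjusted p 0.000339, against -0.067 in spiny mouse, edgeR adjusted p 0.474), and Ccnd2, E2f2 and Rb1 fell in spiny mouse (-0.77, -0.68 and -0.67, edgeR adjusted p 0.000351 to 0.000763). Rb1 had a log2 fold change of -0.030 in mouse (95% interval -0.30 to 0.24, edgeR adjusted p 0.841), where Ccnd2 rose (0.39, edgeR adjusted p 0.0296). The mouse call of Ccnd2 was lost in 5 of 17 alternatives, among them upper-quartile scaling and plain library size. E2f2 also rose in mouse, from 22.0 ± 1.66 to 49.1 ± 3.19 CPM, and its species difference was -1.83 (edgeR adjusted p 1.12e-07). Over the list the species difference was higher for 4 and lower for 5 genes.

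In the rest of the BCL2 family 3 of 11 tested genes rose and 3 fell in mouse (median -0.0011), and 5 of 12 rose and 2 fell in spiny mouse (median 0.093). Bak1, which like Bax opens the mitochondrial membrane, rose in both, from 15.5 ± 3.61 to 32.6 ± 2.91 CPM in mouse and from 25.3 ± 2.79 to 50.01 ± 2.77 CPM in spiny mouse (SD, n = 4; log2 fold changes 1.07 and 0.98, edgeR adjusted p 0.000754 and 4.35e-05). The survival gene Bcl2 fell in both (-0.74 and -0.64, edgeR adjusted p 0.000351 and 0.000654). Bid, whose product activates Bax and Bak1, rose in spiny mouse (0.99, edgeR adjusted p 0.000357) and had a log2 fold change of -0.054 in mouse (95% interval -0.42 to 0.31, edgeR adjusted p 0.785). The species difference was called for 4 genes of this list, higher for Bik (1.22), Bid (1.04) and Bmf (0.55) and lower for Bcl2l1 (-0.69). The call of Bmf was lost in 15 of 25 alternatives.

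ATF4 stress targets, which share their regulator with Sesn2 and Gdf15, were listed next, together with the regulator gene Atf4 itself. Of 12 tested, 6 rose and 2 fell in mouse (median 0.72), and 2 rose and 3 fell in spiny mouse (median 0.12). The spiny mouse count of 5 became 8 without untreated replicate 2 and 9 with limma-voom. The cystine transporter gene Slc7a11 rose in mouse from 6.14 ± 1.92 to 99.6 ± 20.7 CPM (SD, n = 4; log2 fold change 4.02, edgeR adjusted p 6.68e-06), and Chac1, a glutathione-degrading enzyme, from 21.6 ± 17.8 to 185 ± 12.1 CPM (3.10, edgeR adjusted p 0.000593). Neither was called in spiny mouse, with 1.07 for Slc7a11 (95% interval 0.10 to 2.04, edgeR adjusted p 0.059) and -1.76 for Chac1 (95% interval -3.93 to 0.41, edgeR adjusted p 0.148). The species difference of Chac1 had a wide 95% interval, -7.38 to -2.35. Asparagine synthetase (Asns) rose by 1.67 in mouse (edgeR adjusted p 0.000142) and had a log2 fold change of 0.042 in spiny mouse (95% interval -0.27 to 0.35, edgeR adjusted p 0.81). Trib3, a pseudokinase gene, rose in spiny mouse from 1.45 ± 0.495 to 9.57 ± 2.32 CPM (2.71, edgeR adjusted p 8.32e-05), against -0.053 in mouse (95% interval -0.62 to 0.52, edgeR adjusted p 0.866). The stress gene Atf3 fell in both (-1.05 and -0.85, edgeR adjusted p 0.00327 and 0.00329). Of 11 genes tested for the species difference 2 were higher and 6 lower in spiny mouse, with a median of -0.63.

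Regulators of the INK4 locus include the Polycomb proteins that silence it and the ETS factors that activate it. In mouse 4 of 11 rose and 1 fell (median 0.052), and in spiny mouse 4 rose and 3 fell (median 0.078). The Polycomb gene Cbx7 fell in both species, from 55.6 ± 5.396 to 13.8 ± 1.73 CPM in mouse and from 25.0 ± 3.52 to 10.3 ± 1.63 CPM in spiny mouse (SD, n = 4; log2 fold changes -2.01 and -1.27, edgeR adjusted p 6.18e-06 and 0.000108). Its relative Cbx8 and the ETS gene Ets2 rose in mouse (0.86 and 0.64, edgeR adjusted p 0.000417 and 0.00135), against -0.069 and 0.078 in spiny mouse (edgeR adjusted p 0.547 and 0.429). Ets1 rose in spiny mouse (0.71, edgeR adjusted p 0.000704), against -0.22 in mouse (edgeR adjusted p 0.099). Tgfb1 rose in both (0.48 and 0.97, edgeR adjusted p 0.00242 and 0.000124), as did Id1, a repressor of ETS activity at Cdkn2a (0.90 and 0.78, edgeR adjusted p 0.0057 and 0.00124). The species difference was called higher for 3 and lower for 4 of the 11.

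**Figure D4:**
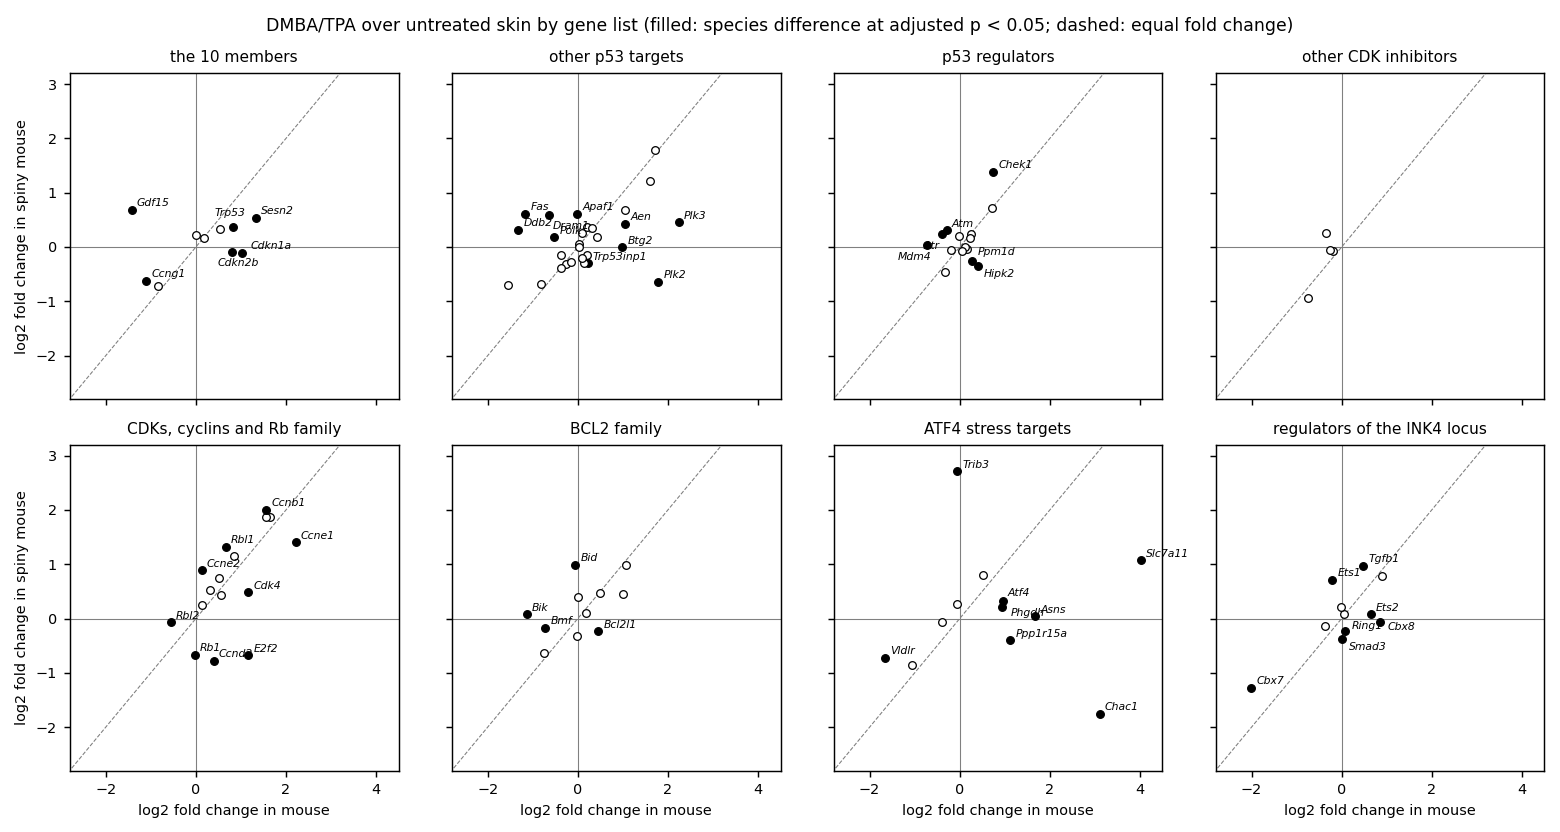
Log2 fold change with DMBA/TPA in mouse (horizontal) against spiny mouse (vertical) for the 10 genes and the 7 lists of related genes, 1 point per gene tested in both. Filled, labelled points differ between the species at an adjusted p of 0.05, and the dashed line marks equal fold changes. Plk2, Plk3 and Chac1 lie far to the right of the line and Fas, Ddb2 and Trib3 to its left.

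RNA levels of markers for the cell types of skin moved with the treatment as well. Cell fractions were not measured, so whether the make-up of the tissue changed was not tested. Of 6 skeletal muscle markers 6 fell in mouse, their summed level going from 7935 to 9781 CPM in untreated to 1790 to 2297 CPM in treated samples. In spiny mouse 5 of 5 tested fell, from 9567 to 12330 to 3211 to 6605 CPM. All 6 proliferation markers rose in mouse (summed 176.7 to 258 CPM untreated, 472.4 to 605.7 CPM treated), as did all 5 tested in spiny mouse (160.2 to 206.7 and 470.8 to 657 CPM). Of the 6 keratinocyte markers 4 rose and 1 fell in mouse and 5 rose in spiny mouse. Anagen hair follicle markers rose in mouse for 5 of 6, from 4.804 to 1554 CPM untreated to 16570 to 17550 CPM treated, whereas 3 of 6 fell in spiny mouse, from 910.1 to 10460 CPM to 147.6 to 2555 CPM. The part of these shifts in the changes of the 10 genes was not tested.

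Markers of immune and other cells were read in the same way, beside the same shares over all genes. These were 25.9% higher and 35.3% lower in mouse, and 28.2% and 26.9% in spiny mouse. No more can be read from a count near them. Of 6 T cell markers 3 fell in mouse (summed 17.2 to 24.6 CPM untreated, 8.88 to 11.8 CPM treated), and of 5 tested 3 rose in spiny mouse (28.1 to 46.1 and 49.3 to 97.3 CPM). Macrophage markers fell for 2 of 6 in mouse (348 to 953 and 409 to 591 CPM) and rose for 4 of 6 in spiny mouse (434 to 498 and 757 to 1134 CPM). Neutrophil markers rose for 2 of 2 tested in mouse (6.01 to 11.1 and 18.9 to 29.8 CPM over the 5 listed) and 3 of 3 tested in spiny mouse (5.51 to 10.0 and 53.5 to 71.3 CPM), with Retnlg at 0 in all spiny mouse samples. Fibroblast markers fell for 1 of 5 in mouse (5687 to 9732 and 4186 to 6620 CPM) and for 3 of 5 in spiny mouse, where 1 rose (2496 to 4244 and 1339 to 2061 CPM). Endothelial markers fell for 2 of 4 in each species (137 to 145 and 96.5 to 127 CPM in mouse, 185.5 to 226 and 166 to 209 CPM in spiny mouse). Adipocyte markers fell for 2 of 4 in mouse (103.5 to 530.4 and 83.5 to 214 CPM) and 3 of 4 in spiny mouse (971 to 1086 and 385 to 573 CPM). Their part in the results was likewise not tested.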

How the data were processed

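RNA of skin was sequenced as polyadenylated, stranded libraries in 16 samples, per the labels. The authors deposited raw counts of fragments for every gene, 1 table for each species. Per the file headers, featureCounts 2.0.3 counted read pairs with both ends mapped, on GRCm39 with Ensembl 108 annotation for mouse and on AcoCah2 for spiny mouse, with no strand option. The submitters' processing notes name Trim Galore and HISAT2. Gene lengths are those of the deposited tables. Mouse identifiers were named from GENCODE M39 (56236 of 56980 matched).

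For each species separately, filterByExpr removed low genes, and counts were scaled by TMM and tested with edgeR 4.0.16 (quasi-likelihood F test, R 4.3.3), treated over untreated, with Benjamini-Hochberg adjustment over all genes tested and a threshold of 0.05. The species difference was the interaction over symbols found once in both tables and passing both filters, in a fit of all 16 samples. For edgeR the SE was taken as the size of the log2 fold change over the square root of the F statistic. Intervals are 95%, from that SE and the t distribution of the fit. Levels are TMM-scaled CPM. Alternatives were DESeq2 1.42.0, 3 other scalings, 2 other filters, a robust fit, limma-voom (limma 3.58.1), a replicate block and leaving out each replicate. Fits were tested on simulated data. Chi-square per degree of freedom between replicates was 11.4 to 165.8 over 24 pairs, where the same library sequenced again would give about 1. This does not tell whether samples of a group came from the same animal.

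The 10 genes and the lists of related genes and markers were chosen with earlier results of these data known. From each list the text drew on called genes with the 3 highest and 3 lowest fold changes per species and the 2 highest and 2 lowest species differences. Cdkn1b, Cdkn2c, Cdkn2d and values in the other species beside a named gene were added after the values were seen, and the closing part names every gene of the lists called for the species difference. Depth limits and intervals cover counting error and the spread between samples only, since the libraries carry no stated molecular identifiers.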

Additional observations from a re-analysis of the deposited data

Results flagged for a closer look

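A single sample stood apart from the other 3 of its group in 3 of 40 gene and group combinations, by a gap to its nearest neighbour that, as a share of the group's range, passed Dixon's 95% critical value. Chance gives about 1 in 20. These were the lowest untreated mouse sample for Trp53 (36.7 CPM), the highest treated mouse sample for Cdkn2b (28.6 CPM) and the highest untreated spiny mouse sample for Trp53 (149 CPM).

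By the interaction test of edgeR, 6 of the 10 genes differed between the species in their treatment effect, where 46.1% of all 13656 genes tested did. As spiny mouse minus mouse on the log2 scale, the differences were -0.45 for Trp53, -1.13 for Cdkn1a, 0.49 for Ccng1, -0.88 for Cdkn2b, -0.79 for Sesn2 and 2.13 for Gdf15.

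The same test was passed by 44 of 96 genes of the related lists. The other p53 targets among them were Plk2 (-2.42), Plk3 (-1.79), Btg2 (-0.99), Aen (-0.63), Trp53inp1 (-0.52), Fas (1.78), Ddb2 (1.63), Dram1 (1.24), Polk (0.70) and Apaf1 (0.63). Among regulators of p53 they were Hipk2 (-0.76), Ppm1d (-0.53), Mdm4 (0.77), Chek1 (0.65), Atr (0.63) and Atm (0.60). Cell cycle genes that passed were E2f2 (-1.83), Ccnd2 (-1.17), Ccne1 (-0.81), Cdk4 (-0.67), Rb1 (-0.64), Ccne2 (0.76), Rbl1 (0.65), Rbl2 (0.49) and Ccnb1 (0.44). In the BCL2 family they were Bcl2l1 (-0.69), Bik (1.22), Bid (1.04) and Bmf (0.55). ATF4 targets that passed were Chac1 (-4.86), Slc7a11 (-2.95), Asns (-1.63), Ppp1r15a (-1.53), Phgdh (-0.73), Trib3 (2.76) and Vldlr (0.93), and so did Atf4 itself (-0.63). For INK4 regulators the values were -0.93 for Cbx8, -0.56 for Ets2, -0.38 for Smad3, -0.30 for Ring1, 0.93 for Ets1, 0.74 for Cbx7 and 0.49 for Tgfb1.

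Over 25 alternatives some of these 44 lost their call in part, with no change of sign. Ccnb1 lost it in 16, Bmf in 15, Ring1 in 13, Atf4 in 9, Ccne1 in 7, Mdm4 and Smad3 in 6, Ccne2 in 3 and Apaf1 and Tgfb1 in 2. Aen, Trp53inp1, Ppm1d and Bcl2l1 lost it on plain library size alone, and Atr without treated mouse replicate 2. The Mdm4 difference ran from 0.37 to 1.02 and was not called with DESeq2 size factors, without the low-count filter, or without untreated mouse replicate 3, treated mouse replicate 2 or 4 or untreated spiny mouse replicate 2.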

How the results depend on the processing

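The number of the 10 genes called was 6 to 7 in mouse, 5 in spiny mouse and 5 to 6 for the species difference, over all alternatives and the fits that left out 1 replicate each. Of all genes 61.2%, 55.1% and 46.1% were called in the fits reported, and 36.1% to 71.7%, 47.2% to 58.5% and 41.9% to 57.4% over those alternatives. Of 590 single-gene values over 25 settings 551 kept direction and call, 14 lost the call, 3 gained it and 22 changed sign. The cause of the changes below was not tested. With upper-quartile factors Mdm2 was -0.20 and Bax -0.022 in mouse, and the species difference of Bax was 0.15. With library size alone these were -0.24, -0.056 and 0.20, and the difference of Cdkn2a was 0.016. With limma-voom Cdkn2b was 0.023 in spiny mouse and the difference of Cdkn2a 0.037. Without the low-count filter the difference of Bbc3 was -0.014. None of these was called in the fit reported. Leaving out 1 replicate gave -0.023 to 0.12 for Mdm2 in mouse and -0.17 to 0.076 for Cdkn2b in spiny mouse, and species differences of -0.75 to 0.024 for Cdkn2a, -0.19 to 0.050 for Bax and -0.024 to 0.29 for Bbc3. The median fold change of all mouse genes moved by -0.20, -0.24 and 0.15 on upper-quartile scaling, plain library size and no filter, and the median difference by -0.10 with DESeq2. With the replicate block 6 genes were called in mouse (Gdf15 was -1.38, edgeR adjusted p 0.0573), 5 in spiny mouse and 6 for the difference. Same-numbered samples correlated at -0.049 to 0.080 in mouse and -0.57 to -0.22 in spiny mouse. In either species 0 of 4 numbers matched best with their own. The labels do not state any pairing, and weak or negative correlations cannot show that same-numbered samples are unrelated. Depth limits Gdf15 and Cdkn2a most, with at least 6 and 28 fragments per mouse sample.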
